A study of Mus musculus with 6 samples.

Results

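Respiratory chain and ATP synthase genes encoded in the nucleus were examined in neuron-enriched cells from the cortex bordering an infarct in male mice. All symbols beginning with Nduf followed by a, b, c, s or v, with Uqcr, with Cox4 to Cox8 or with Atp5 were taken, together with Sdha to Sdhd, Cyc1 and Cycs, which gave 94 of the 24419 genes in the table. The 3 libraries labelled cKO came from Slc17a7-cre; Slc32a1-cre; Padi4flox/flox mice, in which Cre is driven by the vesicular glutamate and GABA transporter genes and so acts in excitatory and inhibitory neurons. The 3 libraries labelled control came from Padi4flox/flox mice without Cre, so both groups carried the floxed alleles and both had a 60 min occlusion of the middle cerebral artery, with tissue taken on day 4. The sources used here give no age. Cells were released with pronase for 75 min and sorted as Thy1-positive cells negative for ACSA2, CD31, CD45 and O4. The comparison asked whether transcripts differ when Padi4, which encodes an enzyme that converts arginine in proteins to citrulline, is deleted in neurons.

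Oxidative phosphorylation is carried out by 5 protein complexes of the inner mitochondrial membrane. Complexes I and II pass electrons from NADH and succinate to ubiquinone, complex III passes them on to cytochrome c, and complex IV passes them to oxygen. The proton gradient built by complexes I, III and IV drives ATP synthase. Most of the subunits are encoded in the nucleus, and neurons rely on the pathway to power ion pumping and synaptic transmission. The 94 genes fell into 36 subunits of complex I, 7 complex I assembly factors, 4 subunits of complex II, 10 of complex III with cytochrome c, 20 of complex IV and 17 of ATP synthase. Ndufa4 and Ndufa4l2 were placed with complex IV, where the NDUFA4 protein is known to reside. Atp5s and Atp5sl were kept with ATP synthase by their symbols, although they are not structural subunits.

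The promoters of many of these genes carry motifs of the factors NRF1, GABP, YY1 and ERR, which are known activators of respiratory genes. Promoter windows from 250 bases before to 50 after the start site matched 74 of the 94 genes. They were searched on both strands for GCGCANGCG (NRF1), CCGGAAG (GABP), AANATGGCG (YY1) and TNAAGGTCA (ERR), where N is any base. The NRF1 motif lay in 22 of the 74 windows (29.7%), against 6.47% of all 27025 promoters in the table and 12.9% of the 11069 promoters of genes tested here. The GABP motif lay in 16 (21.6%), against 9.12% of all promoters and 16.5% of those of tested genes. The YY1 motif lay in 8 (10.8%), against 2.51% of all promoters and 4.91% of those of tested genes, and the ERR motif lay in 3 (4.05%), against 1.26% and 0.750%. At least 1 of the 4 motifs lay in 39 windows (52.7%), against 17.1% of all promoters and 30.4% of those of tested genes. The median GC content was 57.8% in the members' windows, 52.7% over all promoters and 60.7% over tested genes. By complex, the NRF1 motif lay in 8 of 32 windows of complex I subunits, 2 of 6 of assembly factors, 2 of 3 of complex II, 3 of 6 of complex III with cytochrome c, 1 of 14 of complex IV and 6 of 13 of ATP synthase. A match describes these letters only, and binding was not measured.

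Sequences of 4 promoters, 1 for each motif, are shown from 150 bases before to 30 after the start of Sdha, Cox6a1, Atp5b and Atp5g3, from RefSeq on GRCm38.p6, 5′ to 3′ on the strand of the gene, with motif matches in capitals. The Sdha stretch lies at chr13:74350211-74350390 on the minus strand and holds 3 NRF1 matches. The Cox6a1 stretch, at chr5:115348929-115349108 on the minus strand, holds an NRF1 match and a GABP match. The Atp5b stretch, at chr10:128083157-128083336 on the plus strand, holds a YY1 match. The Atp5g3 stretch, at chr2:73911297-73911476 on the minus strand, holds an ERR match before the start and an NRF1 match after it.
Sdha: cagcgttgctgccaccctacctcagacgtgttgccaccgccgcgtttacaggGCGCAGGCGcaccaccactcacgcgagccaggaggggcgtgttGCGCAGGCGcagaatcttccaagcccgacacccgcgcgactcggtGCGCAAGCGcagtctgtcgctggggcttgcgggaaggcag
Cox6a1: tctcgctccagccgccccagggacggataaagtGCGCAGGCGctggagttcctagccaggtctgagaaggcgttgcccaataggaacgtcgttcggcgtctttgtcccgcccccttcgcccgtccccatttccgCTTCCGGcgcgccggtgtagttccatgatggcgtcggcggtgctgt
Atp5b: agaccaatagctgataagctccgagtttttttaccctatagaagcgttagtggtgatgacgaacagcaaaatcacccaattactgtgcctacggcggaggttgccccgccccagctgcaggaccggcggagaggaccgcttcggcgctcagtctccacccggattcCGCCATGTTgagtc
Atp5g3: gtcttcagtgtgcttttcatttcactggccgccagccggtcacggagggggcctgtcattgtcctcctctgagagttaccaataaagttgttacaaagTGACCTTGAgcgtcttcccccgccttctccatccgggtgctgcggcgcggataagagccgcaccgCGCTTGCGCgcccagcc

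The libraries held 10094145 to 24056755 reads, and 14042 to 17891 genes were detected in each. Padi4, the targeted gene, was at 0, 0.303 and 0.505 in the libraries labelled cKO and at 0 in each library labelled control, with 0, 3 and 12 reads against 0 in each control. The reads thus lay only in cKO-labelled libraries, 12 in the library with the most reads and 3 in the one with the fewest. Cre acts in neurons, and markers of other cells were present in every library. The source of the reads was not tested, and the deletion could not be checked from so few. The groups are therefore called by their labels throughout. Neuron markers (10 of 10 genes detected) summed to 1350 to 6499 in cKO-labelled libraries and 2451 to 3611 in control-labelled libraries. Oligodendrocyte markers (10 of 10 detected) summed to 11280 to 32657 in cKO-labelled libraries and 21899 to 27311 in control-labelled libraries, above the neuron markers in every library. Fewer cells of a type and less RNA per cell cannot be told apart in such bulk samples. Fibroblast markers (6 of 6 detected) summed to 35.2 to 3588 in cKO-labelled libraries and 286 to 6120 in control-labelled libraries. Values are CPM, read counts divided by library size, scaled again for each library and called scaled CPM here. In every sentence that lists values by library, replicates 1 to 3 come in that order.

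No difference between the groups was detected for any respiratory gene. Of the 94 genes, 89 reached a value of 1 in 3 or more libraries and were tested. Limma called 0 of the 89 at an adjusted p under 0.05 in either direction, against a background of 0% of the 14796 genes tested, higher or lower. The smallest adjusted p was 0.9996. At an unadjusted p under 0.05 limma gave 0 of 89, against 0.338% of all genes higher and 0.514% lower in cKO-labelled libraries. On recovered whole reads, edgeR called 0 of 89 at an adjusted p under 0.05 (background 0% higher, 0% lower) and 0 of 89 at an unadjusted p under 0.05 (background 0.277% higher, 0.216% lower). DESeq2 also called 0 of 89 at an adjusted p (background 0% higher, 0.00676% lower) and 0 at an unadjusted p (background 0.656% higher, 0.527% lower). Every gene had overlapping groups, against 2.45% of all genes with every cKO-labelled library above every control-labelled library and 2.26% with every one below. Whether each library stands for another animal is not stated in the labels, and the p-values therefore reflect the spread among these 6 samples, part of which may be technical.

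The fold changes of the 89 genes lay on both sides of 0. On the log2(value + 1) scale, 48 were above 0 and 41 below, which is 53.9% above, beside 48.0% of all genes tested. Their median was 0.02 (range -1.18 to 0.95), beside -0.02 for all genes tested. In 72 of 89 the log2 fold change was under 0.5 in size. The median standard error (SE) was 0.47, beside 0.54 for all genes, and the 95% interval lay within 1 log2 unit of 0 for 21 genes. For the other 68 a difference of 1 log2 unit was inside the interval, so the data set no such limit there.

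**Figure D1:**
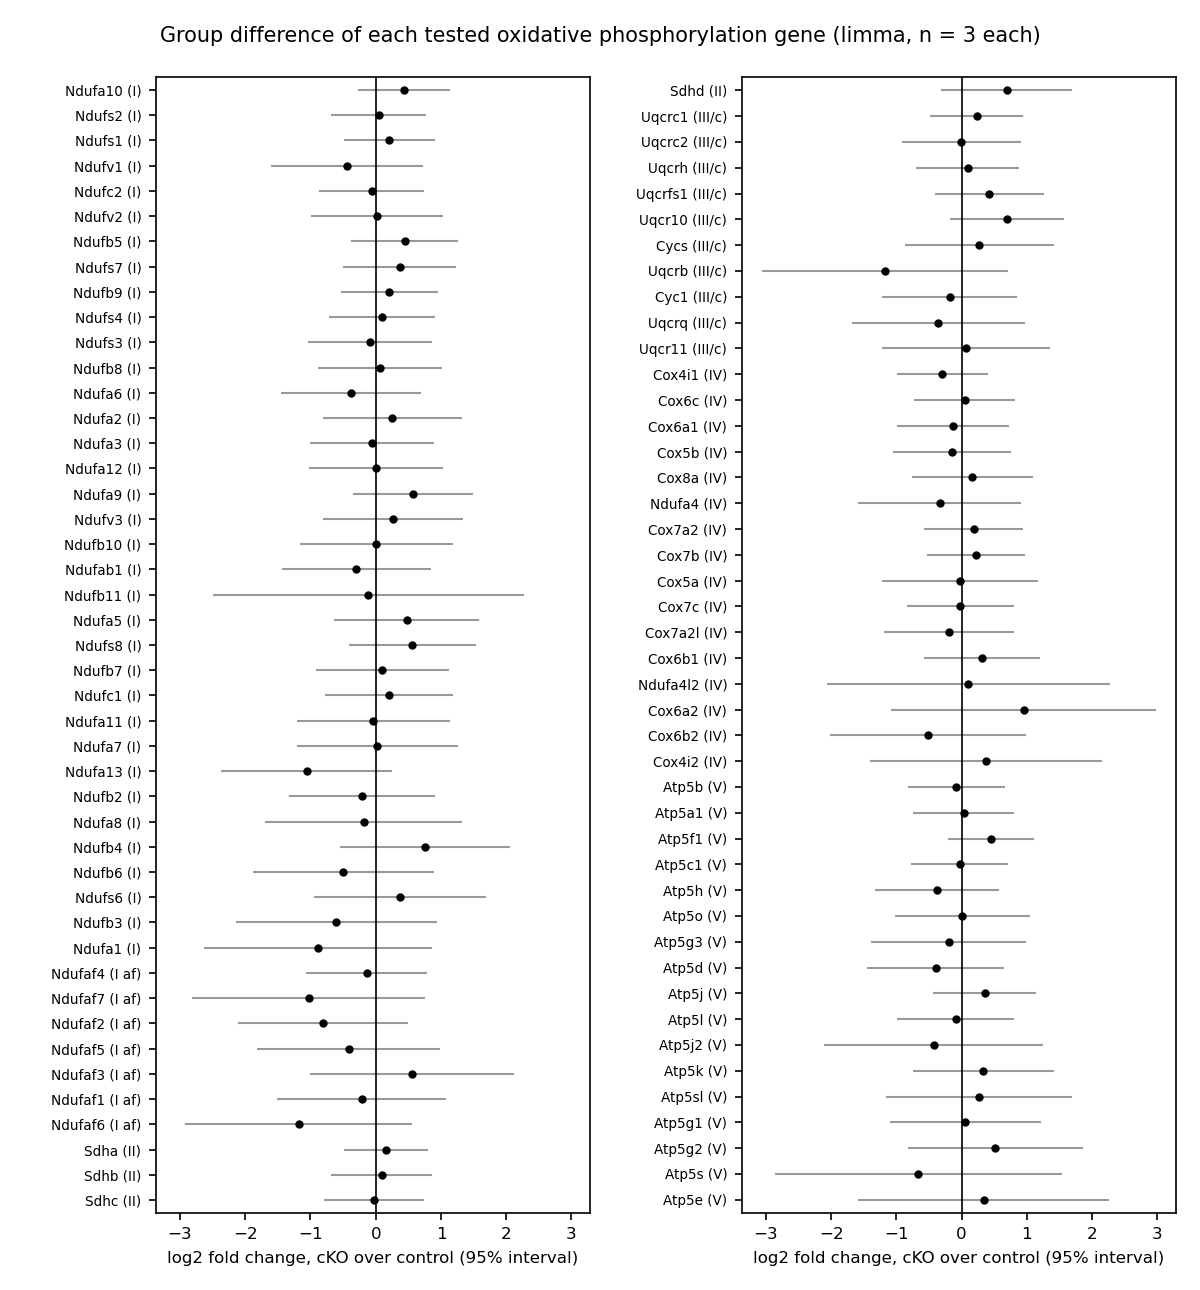
Log2 fold change (cKO-labelled over control-labelled, log2(value + 1) scale) of each of the 89 tested genes with its 95% interval from limma (n = 3 libraries each), grouped by complex and within a complex ordered by mean level. Every interval includes 0, and the points run from -1.18 to 0.95.

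Among the 36 complex I subunits, which form the NADH-oxidising entry of the chain, 35 were tested, 21 had fold changes above 0 and 14 below, and the median was 0.02 on the log2 scale. The 7 core subunits, which bind the flavin and iron-sulfur clusters of the enzyme, had a median of 0.04, with 5 above 0. The 28 tested accessory subunits had a median of 0.02, with 16 above 0. Ndufa10, the complex I subunit gene with the highest mean, had 68.2, 117 and 103 scaled CPM in cKO-labelled libraries and 67.7, 67.1 and 72.5 in control-labelled libraries. Replicate 1 of the cKO-labelled libraries lay among the controls and the other 2 above them, with a log2 fold change of 0.43 (SE 0.32). Ndufb4, with the largest positive difference in the complex, had 13.3, 13.1 and 25.6 scaled CPM in cKO-labelled libraries and 16.5, 4.85 and 9.95 in control-labelled libraries, and the groups overlapped (log2 fold change 0.75, SE 0.59). Ndufb4 shares a stretch of 390 bases at 100% identity with Ndufb4c, so reads may be split between them. Ndufa9, an accessory subunit near the ubiquinone site, had 23.1, 41.4 and 34.4 scaled CPM in cKO-labelled libraries and 23.0, 23.7 and 17.7 in control-labelled libraries, a log2 fold change of 0.57 (SE 0.41). Replicate 1 of the cKO-labelled libraries again lay within the control range.

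Ndufa13, an accessory subunit also known as GRIM-19, had the smallest unadjusted p of the 89 genes (limma, adjusted p = 0.9996). It had 12.9, 4.24 and 15.1 scaled CPM in cKO-labelled libraries and 13.4, 28.9 and 23.7 in control-labelled libraries, with means of 10.7 ± 5.74 and 22.0 ± 7.91 (SD, n = 3 each). The cKO-labelled replicate 3 lay above control-labelled replicate 1, and the log2 fold change was -1.06 (SE 0.59, 95% interval -2.37 to 0.25), or -0.56 without cKO-labelled replicate 2. Ndufa1, a small membrane subunit, had 4.75, 0.303 and 5.64 scaled CPM in cKO-labelled libraries and 3.23, 9.49 and 6.11 in control-labelled libraries. Ndufb11, another membrane-arm subunit, had 32.0, 2.93 and 27.5 scaled CPM in cKO-labelled libraries and 32.4, 2.13 and 43.6 in control-labelled libraries. Its libraries numbered 2 were low under both labels, at 29 reads each, against 352 to 784 reads in the other libraries. A stretch of 456 bases of the Ndufb11 transcript is 96.9% identical to one of Gm6444. Ndufa1 and Ndufb11 were picked after their values were seen.

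Ndufs5, an accessory subunit, was listed at 0 in all 6 libraries. A stretch of 319 bases of its transcript is 99.4% identical to one of BC002163. That gene had 4.17, 0.303 and 3.20 scaled CPM in cKO-labelled libraries and 2.67, 1.77 and 3.89 in control-labelled libraries. The sources used here do not give how reads that match both were counted, so the level of Ndufs5 is uncertain.

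The 7 complex I assembly factors, which build the complex but do not stay in it, had 6 fold changes below 0 and a median of -0.42, and none was called. Their mean log2(value + 1) level was 3.57, 2.39 and 3.71 in cKO-labelled libraries and 3.76, 3.80 and 3.48 in control-labelled libraries, so replicate 2 of the cKO-labelled libraries stood lowest and the other 2 lay within the control range. Leaving that library out gave a median of -0.13, against -0.42 with it. Ndufaf6 had 4.22, 0.101 and 4.71 scaled CPM in cKO-labelled libraries and 5.90, 10.004 and 4.06 in control-labelled libraries. The cKO-labelled replicate 2 value was 1 read, with an exact Poisson 95% interval of 0.00256 to 0.563, and the log2 fold change was -1.18 (SE 0.79), or -0.41 without that library. Ndufaf7, a methyltransferase that acts on a core subunit, had 22.2, 1.82 and 20.9 scaled CPM in cKO-labelled libraries and 17.8, 37.4 and 15.8 in control-labelled libraries. It was picked after its values were seen. Ndufaf3 was the factor above 0, with 7.53, 6.16 and 16.7 scaled CPM in cKO-labelled libraries and 9.40, 1.99 and 9.83 in control-labelled libraries (log2 fold change 0.56, SE 0.71, or -0.05 without control-labelled replicate 2). Ndufaf4, the factor with the highest mean, had 17.1, 23.0 and 21.5 scaled CPM in cKO-labelled libraries and 25.9, 18.4 and 23.8 in control-labelled libraries.

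Complex II, which is also the succinate dehydrogenase of the citric acid cycle, had 3 of 4 fold changes above 0 and a median of 0.12. Sdha, the flavoprotein subunit, had 153, 147 and 158 scaled CPM in cKO-labelled libraries and 166, 140 and 110 in control-labelled libraries (log2 fold change 0.16, SE 0.29, 95% interval -0.48 to 0.80). Its 3 cKO-labelled libraries lay close together and inside the control range. Sdhd, a membrane anchor, had 29.8, 25.6 and 27.2 scaled CPM in cKO-labelled libraries and 26.8, 11.8 and 14.6 in control-labelled libraries. Limma gave a log2 fold change of 0.69 (SE 0.45, adjusted p = 0.9996), and cKO-labelled replicate 2 lay below control-labelled replicate 1. Sdhc, the other anchor, had 41.6, 32.2 and 44.7 scaled CPM in cKO-labelled libraries and 36.3, 45.5 and 38.9 in control-labelled libraries (log2 fold change -0.03, SE 0.35).

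Complex III, which hands electrons from ubiquinol to cytochrome c, had 6 of 10 fold changes above 0 with cytochrome c counted in, and a median of 0.08. Uqcrc1, a core protein and the gene of the complex with the highest mean, had 87.4, 105 and 151 scaled CPM in cKO-labelled libraries and 82.1, 89.4 and 116 in control-labelled libraries (log2 fold change 0.23, SE 0.32). Uqcr10, a small subunit, had 29.3, 56.6 and 43.5 scaled CPM in cKO-labelled libraries and 23.2, 30.2 and 23.4 in control-labelled libraries. The cKO-labelled replicate 1 lay just under control-labelled replicate 2, and limma gave a log2 fold change of 0.69 (SE 0.39, adjusted p = 0.9996). Uqcrb, a subunit at the ubiquinone-reducing site, had 30.5, 1.92 and 37.2 scaled CPM in cKO-labelled libraries and 41.6, 27.4 and 32.7 in control-labelled libraries. The cKO-labelled replicate 2 stood at 19 reads (exact Poisson 95% interval 1.16 to 3.00 scaled CPM), while the other 2 cKO-labelled libraries lay inside the control range, and the log2 fold change was -1.18 (SE 0.85) by limma. It was -0.55 by edgeR, -0.58 by DESeq2 and 0.01 by limma without that library. Uqcrb shares stretches with transcripts of 3 other genes, the longest of 336 bases at 97.9% identity. Cycs, which encodes the electron carrier cytochrome c, had 32.3, 26.3 and 46.8 scaled CPM in cKO-labelled libraries and 34.7, 13.02 and 48.7 in control-labelled libraries. Its transcript shares stretches of at least 100 bases at 95% identity or more with transcripts of 51 other genes, so its count is uncertain.

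**Figure D2:**
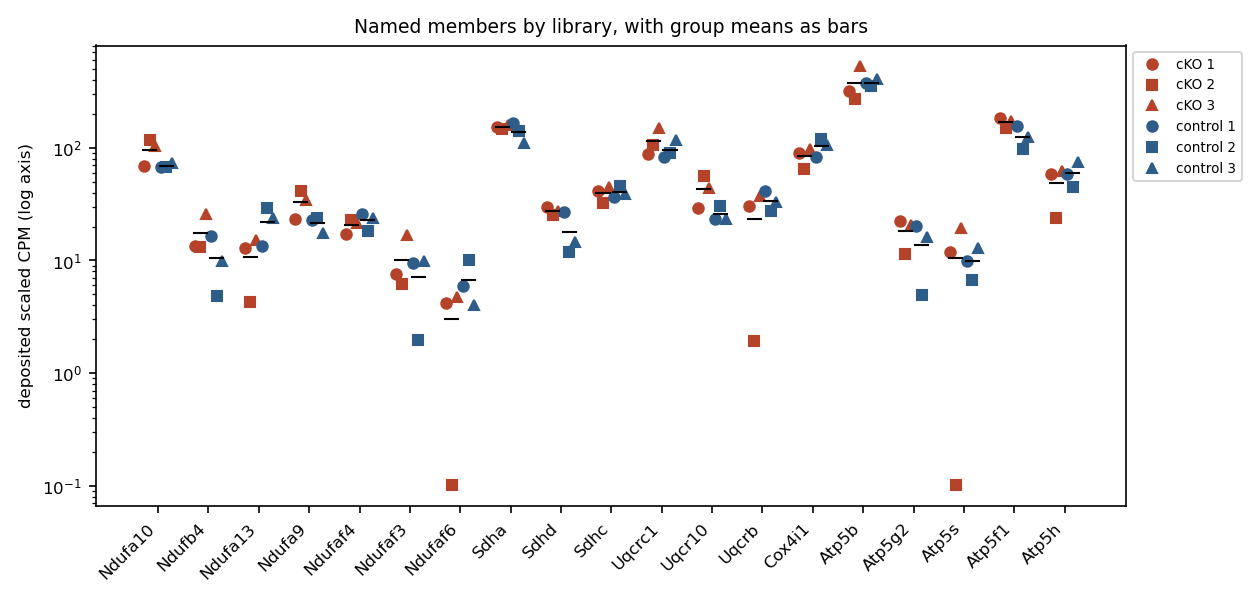
Scaled CPM (log axis) of the leading genes of each complex in every library, cKO-labelled in red to the left and control-labelled in blue to the right, with group means as bars. The groups overlap for every gene, and cKO-labelled replicate 2 lies at 1.92 for Uqcrb and at 0.101 for Ndufaf6 and Atp5s.

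Complex IV, cytochrome c oxidase, had 16 of 20 genes tested, with 8 fold changes above 0 and 8 below and a median of 0.01. Cox4i1, the common form of subunit 4, had 89.7, 64.7 and 97.3 scaled CPM in cKO-labelled libraries and 82.9, 120 and 106 in control-labelled libraries (log2 fold change -0.30, SE 0.31). Cox4i2, the form known from lung and vessels, had 3.93, 0 and 1.39 scaled CPM in cKO-labelled libraries and 1.94, 0 and 0.833 in control-labelled libraries. Ndufa4l2, a paralog of Ndufa4 that is induced by low oxygen, followed the same order of libraries in the cKO-labelled group, with 7.005, 0 and 3.79 scaled CPM there and 5.16, 0 and 4.06 in control-labelled libraries. Both genes were at 0 reads in replicate 2 under either label, where 0 reads allow up to 0.303 in the cKO-labelled library and 0.221 in the control-labelled library (3 reads, counting error only). Summed pericyte and smooth muscle markers (11 of 11 detected) were 1161, 379 and 702 in cKO-labelled libraries and 1162, 407 and 594 in control-labelled libraries, lowest in the same 2 libraries. Fibroblast, endothelium and striated muscle sums were also lowest in these 2 libraries. Higd1b, of the pericyte list, was instead lowest in replicate 3, with 6.72, 4.04 and 1.39 scaled CPM in cKO-labelled libraries and 3.69, 2.65 and 2.11 in control-labelled libraries. The part of any cell type in these values was not tested. Ndufa4 had 41.0, 16.1 and 85.2 scaled CPM in cKO-labelled libraries and 47.9, 33.8 and 71.7 in control-labelled libraries.

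Of the forms known from striated muscle, Cox6a2 had the largest positive fold change of the 89 genes. It had 0.192, 10.7 and 1.98 scaled CPM in cKO-labelled libraries and 0.0922, 2.50 and 0.500 in control-labelled libraries, a log2 fold change of 0.95 (SE 0.91, 95% interval -1.08 to 2.98) by limma, 2.04 by edgeR and 2.06 by DESeq2. Replicate 2 was the highest and replicate 1 the lowest under both labels. Cox6a2 is also known from parvalbumin interneurons of the mouse cortex. The list of interneuron markers (8 of 8 detected) holds Pvalb but also genes of GABA neurons in general, such as Gad1 and Gad2. Its sums were 121, 252 and 787 in cKO-labelled libraries and 322, 330 and 461 in control-labelled libraries. Like Cox6a2, they were lowest in replicate 1 under both labels, but they were highest in replicate 3. Pvalb alone had 2.16, 7.88 and 14.02 scaled CPM in cKO-labelled libraries and 2.49, 14.3 and 4.39 in control-labelled libraries. The part of these cells in the Cox6a2 values was not tested. The common form Cox6a1 had 69.7, 46.5 and 102 scaled CPM in cKO-labelled libraries and 63.0, 64.1 and 108 in control-labelled libraries. Cox7a1 was too low to be tested, with 1.20, 0 and 0.210 scaled CPM in cKO-labelled libraries and 0.0922, 6.91 and 0.111 in control-labelled libraries, where 1 library of 6 held 94 reads and the others at most 25. Cox8b did not exceed 0.444 in any library. Of the forms known from testis rather than muscle, Cox7b2 did not exceed 0.333 in any library and Cox8c was at 0 in all 6. Striated muscle markers (6 of 6 detected) summed to at most 10.1.

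Cox6b2, the form of subunit 6b known from testis, had 3.41, 1.01 and 0.589 scaled CPM in cKO-labelled libraries and 2.21, 2.72 and 2.44 in control-labelled libraries, the most negative fold change of complex IV (-0.52, SE 0.67). The cKO-labelled replicate 1 lay above all controls and the other 2 below them. Cox6b1, the common form, had 28.0, 33.7 and 31.7 scaled CPM in cKO-labelled libraries and 27.6, 17.7 and 31.2 in control-labelled libraries. Cox7a2, Cox7b and Cox8a, the common forms of the remaining pairs, had log2 fold changes of 0.18 (SE 0.34), 0.22 (SE 0.34) and 0.16 (SE 0.42), each with overlapping groups.

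**Figure D3:**
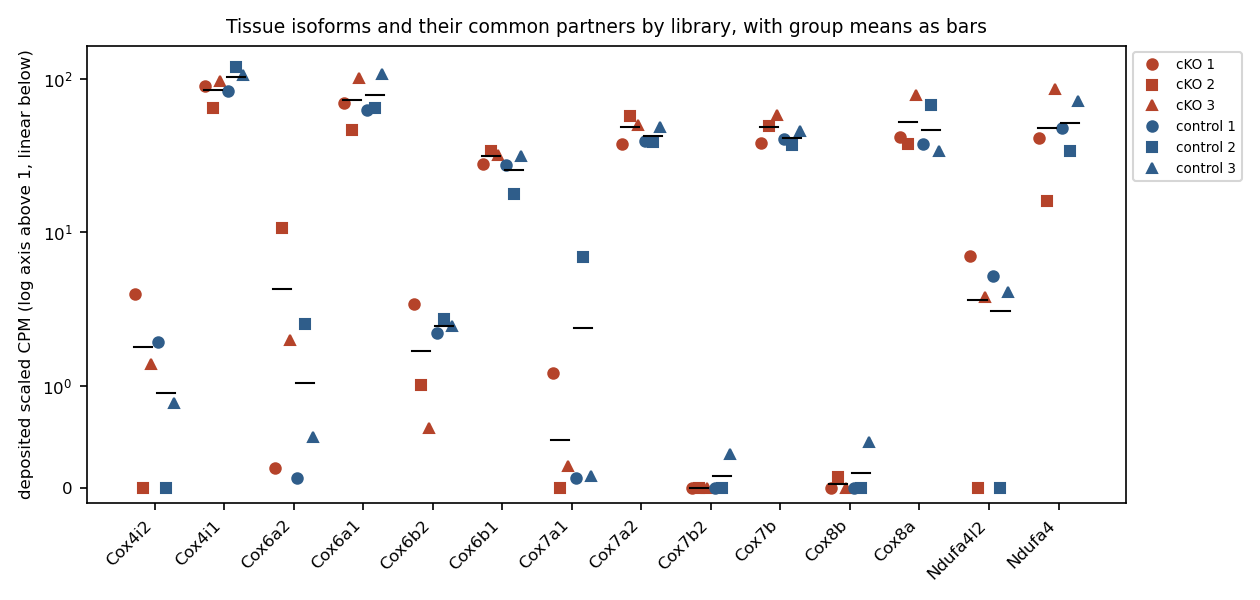
Scaled CPM (log axis above 1, linear below) of the tissue-restricted isoforms and their common partners in every library, cKO-labelled in red to the left and control-labelled in blue to the right, with group means as bars. Cox4i2 and Ndufa4l2 are at 0 in replicate 2 of both groups, and Cox6a2 is highest there, at 10.7 in the cKO-labelled and 2.50 in the control-labelled library.

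ATP synthase had 9 of 17 fold changes above 0 and a median of 0.01. In its catalytic F1 part and central stalk 2 of 5 were above 0, in the proton-carrying c ring 2 of 3, in the peripheral stalk 3 of 4 and among the small membrane subunits 1 of 3. Atp5b, the catalytic beta subunit and the gene with the highest mean of all 94, had 321, 269 and 526 scaled CPM in cKO-labelled libraries and 378, 352 and 405 in control-labelled libraries. The control-labelled libraries lay between the lower 2 and the highest of the cKO-labelled ones, and the log2 fold change was -0.08 (SE 0.33, 95% interval -0.82 to 0.66). Atp5a1, the alpha subunit, had 223, 235 and 472 scaled CPM in cKO-labelled libraries and 281, 269 and 309 in control-labelled libraries, in the same arrangement. Atp5f1, the b subunit of the peripheral stalk, had 184, 151 and 174 scaled CPM in cKO-labelled libraries and 154, 96.8 and 125 in control-labelled libraries. Only cKO-labelled replicate 2 and control-labelled replicate 1 crossed, by 151 against 154, and limma gave a log2 fold change of 0.45 (SE 0.30, adjusted p = 0.9996). Atp5f1 shares stretches with 4 other genes' transcripts. Atp5h, the d subunit of the same stalk, had 58.9, 24.0 and 62.0 scaled CPM in cKO-labelled libraries and 58.8, 44.8 and 74.5 in control-labelled libraries (log2 fold change -0.38, SE 0.43, or 0.06 without cKO-labelled replicate 2). Atp5g2, 1 of the 3 genes for the c subunit, had 22.2, 11.3 and 20.8 scaled CPM in cKO-labelled libraries and 20.1, 4.93 and 16.2 in control-labelled libraries (log2 fold change 0.51, SE 0.61, or -0.05 without control-labelled replicate 2). Atp5s had 11.99, 0.101 and 19.5 scaled CPM in cKO-labelled libraries and 9.86, 6.69 and 12.9 in control-labelled libraries, and its value in cKO-labelled replicate 2 was 1 read. Its direction was not stable, with a log2 fold change of -0.66 (SE 0.99) by limma, 0.10 by edgeR, 0.06 by DESeq2 and 0.63 by limma without that library.

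Set per length, levels spanned a wide range between genes. Atp5b was highest at 196 scaled CPM per kb of transcript over the 6 libraries. Cox6c, Cox6a1, Cox4i1 and Uqcrh followed at 134, 132, 124 and 123 per kb, and Atp5a1 and Ndufa4 were at 116 and 107. The medians per kb were 61.3 for ATP synthase, 50.4 for complex IV, 43.3 for complex III with cytochrome c, 31.8 for complex I subunits, 29.9 for complex II and 5.95 for complex I assembly factors. Of the 94 genes, 38 have a stretch of at least 100 bases at 95% identity or more in another gene's transcript, which limits levels compared between genes. Exons of 25 members overlap those of another annotated gene, which limits them too.

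Levels of the respiratory genes differed from library to library, with the widest range among the cKO-labelled ones. Their summed level was 3686, 2996 and 5173 scaled CPM in cKO-labelled libraries and 3749, 3440 and 4006 in control-labelled libraries, which is 3951 ± 1113 and 3732 ± 284 (SD, n = 3 each). This was 0.369%, 0.294% and 0.511% of all reads in cKO-labelled libraries and 0.382%, 0.358% and 0.390% in control-labelled libraries. The lowest and the highest library were both labelled cKO, and the control-labelled range lay between them. The cKO-labelled replicate 3 held the single highest value for 46 of the 89 genes (51.7%), beside 18.2% of all genes tested. The cKO-labelled replicate 2 held the single lowest value for 42 genes (47.2%), beside 31.6% of all genes tested. In that library 28 of the 89 genes (31.5%) lay more than 1 log2 unit below their own median over the 6 libraries, against 12 in control-labelled replicate 2 and at most 1 in each other library. Over all genes tested that share was 22.6% in cKO-labelled replicate 2 and 3.16% to 6.35% in the libraries not numbered 2. In control-labelled replicate 2 it was 13.1% of all genes, near the 13.5% of the members. Both libraries numbered 2 had the fewest detected genes of their group, and the median member had 200 reads in cKO-labelled replicate 2 and 916 in cKO-labelled replicate 3.

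In complexes I, III and IV and ATP synthase, cKO-labelled replicate 3 was the highest library and cKO-labelled replicate 2 the lowest. The mean log2(value + 1) of ATP synthase was 5.46, 4.60 and 5.89 in cKO-labelled libraries and 5.40, 4.97 and 5.56 in control-labelled libraries. For complex I subunits it was 4.64, 4.18 and 5.21 in cKO-labelled libraries and 4.65, 4.54 and 4.79 in control-labelled libraries. In complex II the lowest library was labelled control, with 5.86, 5.52 and 5.86 in cKO-labelled libraries and 5.73, 5.43 and 5.40 in control-labelled libraries. Across the 89 genes, Pearson's r between the log2 values of library pairs was 0.76 to 0.84 for the 9 pairs with a library numbered 2 and 0.91 to 0.97 for the other 6, as a description over genes that share libraries. Neuron markers summed to 1350, 3919 and 6499 in cKO-labelled libraries and 2451, 3611 and 2580 in control-labelled libraries, and oligodendrocyte markers to 32657, 21012 and 11280 in cKO-labelled libraries and 27311, 21899 and 21990 in control-labelled libraries. The cKO-labelled replicate 3 thus had the highest neuron sum, the lowest oligodendrocyte sum and the highest respiratory sum, while cKO-labelled replicate 2 had a higher neuron sum than any control-labelled library and the lowest respiratory sum. The part of cell type and depth in the members' levels was not tested.

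**Figure D4:**
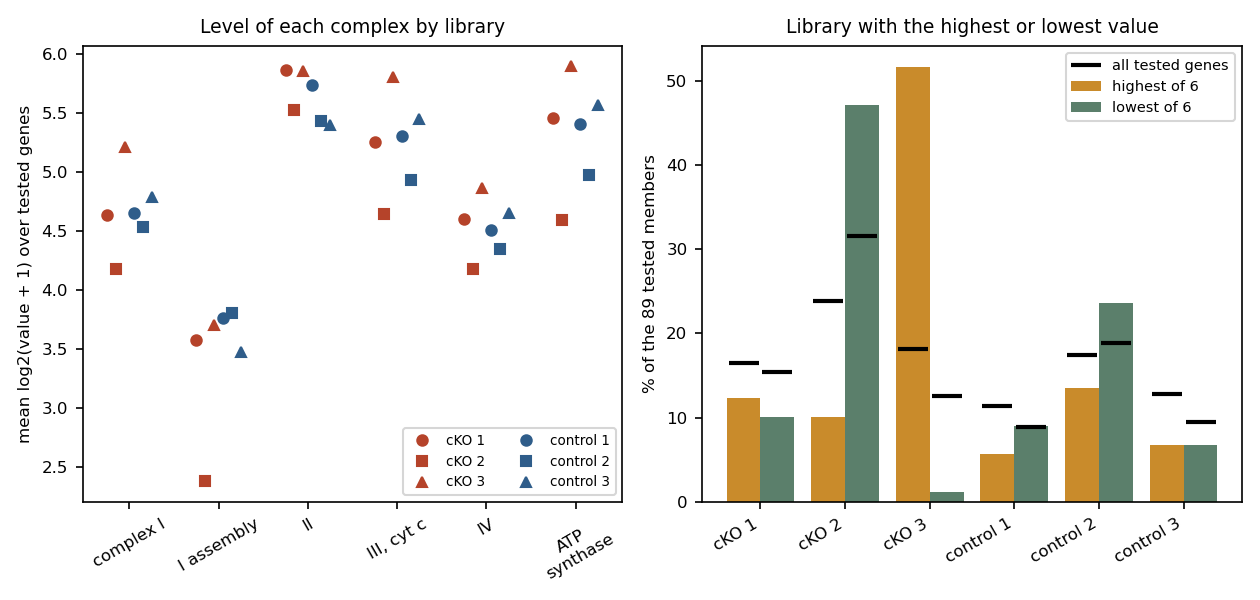
Left, mean log2(value + 1) of the tested genes of each complex in every library. Right, the share of the 89 genes whose single highest or lowest value fell in each library, with black lines for all genes tested. The cKO-labelled replicate 3 holds the highest value of 51.7% of the genes and cKO-labelled replicate 2 the lowest of 47.2%.

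**Figure D5:**
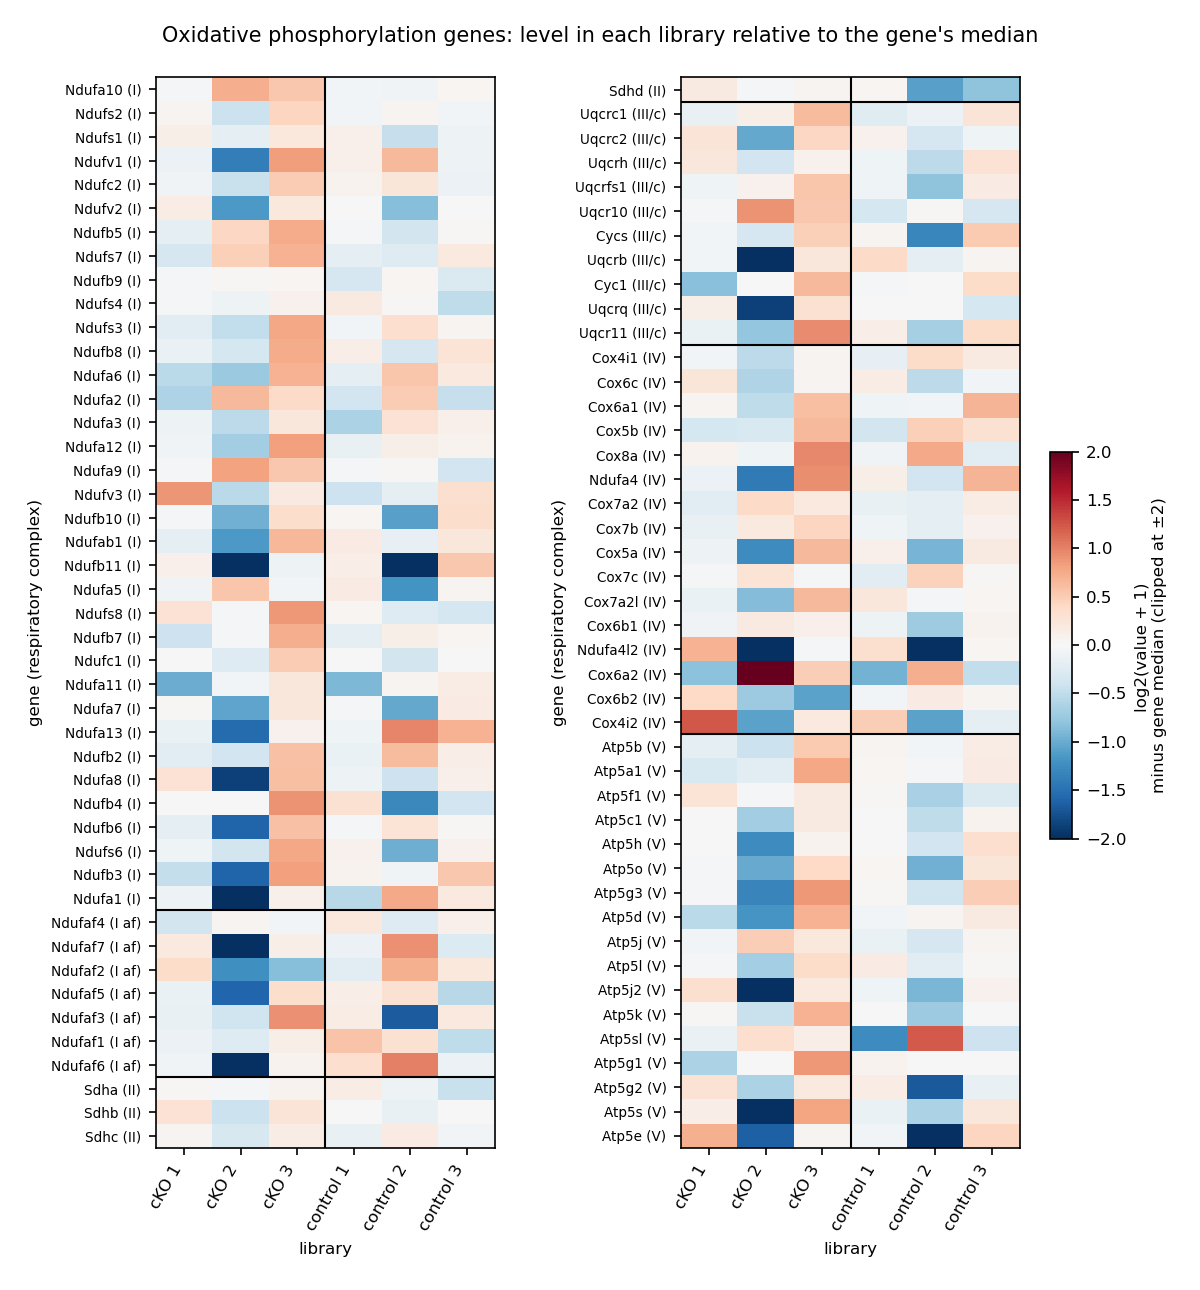
Level of each of the 89 genes in each library as log2(value + 1) minus the gene's median over the 6 libraries, clipped at 2 units, by complex. Red marks levels above the median and blue levels below, and the cKO-labelled replicate 2 column holds 28 genes more than 1 unit below it.

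The direction of the list rested on single libraries. Without cKO-labelled replicate 3, 31 of 87 tested genes (35.6%) were above 0 and the median log2 fold change was -0.22. Over all genes tested 44.9% were above 0 there, with a median of -0.06. Without cKO-labelled replicate 2, 72 of 88 (81.8%) were above 0 and the median was 0.26, beside 53.9% and 0.04 for all genes tested. Limma called 0 of these genes either way, and 0 of all genes tested.

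Among related mitochondrial genes outside the rule, 0 were called by limma at an adjusted p under 0.05, beside 0% of all genes tested. Of 17 pyruvate dehydrogenase and citric acid cycle enzymes, which feed the chain with NADH and succinate, 14 (82.4%) were above 0, beside 48.0% of all genes. Their median was 0.13. Dlat, the acetyltransferase of pyruvate dehydrogenase, had 59.0, 64.7 and 87.8 scaled CPM in cKO-labelled libraries and 57.8, 38.0 and 51.4 in control-labelled libraries. All 3 cKO-labelled libraries lay above the controls, as they do for 2.45% of all genes (limma, log2 fold change 0.51, SE 0.34, adjusted p = 0.9996). Pdha1, a catalytic subunit of the same enzyme, had 80.3, 38.0 and 101 scaled CPM in cKO-labelled libraries and 104, 71.1 and 82.5 in control-labelled libraries, with overlap (log2 fold change -0.32, SE 0.40, or 0.08 without cKO-labelled replicate 2). Dlat was 1 of 2 enzymes of the list without overlap. The other, Dld, was picked after its values were seen. It had 110, 107 and 109 scaled CPM in cKO-labelled libraries and 102, 79.1 and 88.5 in control-labelled libraries (log2 fold change 0.28, SE 0.28). Of 77 mitochondrial ribosomal proteins, 53 (68.8%) were above 0 with a median of 0.17, beside 48.0% of all genes. Of 39 tested assembly factors outside the rule 20 were above 0 (median 0.09), of 14 transcriptional regulators 7 (0.05), of 13 cristae genes 5 (-0.10) and of 11 carriers 6 (0.03).

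The assembly factors outside the rule with the smallest p in each direction both serve complex I. Nubpl, which delivers iron-sulfur clusters, had 3.55, 11.01 and 3.07 scaled CPM in cKO-labelled libraries and 3.78, 0 and 0.444 in control-labelled libraries, where control-labelled replicate 1 lay above 2 of the cKO-labelled libraries (limma, log2 fold change 1.67, SE 0.80, adjusted p = 0.9996). Tmem186, a factor for the membrane arm, had 8.54, 0.303 and 13.6 scaled CPM in cKO-labelled libraries and 12.8, 33.1 and 11.95 in control-labelled libraries. Its groups overlapped too, and cKO-labelled replicate 2 stood at 3 reads (limma, log2 fold change -1.69, SE 0.89, adjusted p = 0.9996). Mrps6, a mitochondrial ribosomal protein, had 11.2, 5.45 and 11.7 scaled CPM in cKO-labelled libraries and 13.7, 15.96 and 61.3 in control-labelled libraries. These groups did not overlap, as for 2.26% of all genes in that direction, and 1 control-labelled library stood far above the rest (limma, log2 fold change -1.32, SE 0.64, adjusted p = 0.9996). Mrpl2, of the large subunit of that ribosome, had 8.35, 29.5 and 19.2 scaled CPM in cKO-labelled libraries and 12.2, 5.002 and 9.0006 in control-labelled libraries, with overlap (log2 fold change 0.96, SE 0.61).

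The cristae and carrier genes named by the same rule all had overlapping groups. Opa1, a fusion protein of the inner membrane, had 165.2, 196 and 227 scaled CPM in cKO-labelled libraries and 180, 194 and 157 in control-labelled libraries (log2 fold change 0.14, SE 0.28). Apool had 5.997, 0 and 3.66 scaled CPM in cKO-labelled libraries and 9.96, 1.84 and 4.67 in control-labelled libraries (log2 fold change -0.81, SE 0.87, or 0.03 without cKO-labelled replicate 2). Slc25a27, an uncoupling protein, had 47.7, 77.2 and 41.8 scaled CPM in cKO-labelled libraries and 34.7, 49.6 and 35.8 in control-labelled libraries (log2 fold change 0.43, SE 0.37). Slc25a5, an adenine nucleotide carrier, had 104, 26.8 and 164 scaled CPM in cKO-labelled libraries and 137, 81.6 and 158 in control-labelled libraries (log2 fold change -0.64, SE 0.58, or 0.11 without cKO-labelled replicate 2).

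Ppargc1a, the coactivator PGC-1α that drives mitochondrial gene expression, had 22.6, 112 and 59.4 scaled CPM in cKO-labelled libraries and 22.1, 32.1 and 25.7 in control-labelled libraries. The cKO-labelled replicate 1 lay in the control range and the other 2 above it (limma, log2 fold change 0.99, SE 0.54, adjusted p = 0.9996). It was highest in the library where the respiratory genes were lowest, and next highest in the library where they were highest. Pprc1, a related coactivator, had 37.3, 22.1 and 39.9 scaled CPM in cKO-labelled libraries and 40.4, 70.4 and 62.7 in control-labelled libraries, without overlap, as is true of 2.26% of all genes in that direction (limma, log2 fold change -0.79, SE 0.39, adjusted p = 0.9996). Esrra, which encodes the receptor ERRα and was picked after its values were seen, had 10.6, 13.4 and 9.77 scaled CPM in cKO-labelled libraries and 5.90, 3.53 and 6.44 in control-labelled libraries, without overlap, as is true of 2.45% of all genes in that direction (limma, log2 fold change 0.98, SE 0.56, adjusted p = 0.9996).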

How the data were processed

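RNA was measured in 3 cKO-labelled and 3 control-labelled libraries, which per the labels' protocols were made with the Ovation SoLo kit. Per the submitters' processing notes, the mm10 build, HISAT2, Trimmomatic, featureCounts and edgeR were used, without versions or roles. The sources used here give no strand, annotation or multi-mapping setting. The deposited values are a normalized signal, CPM rescaled again for each library by the authors, with column totals of 961962 to 1027958. Every library's values are whole multiples of 1 read, and 100% came out within 0.001 of a whole number. Plain CPM had been assumed when the test was chosen, and the test was kept. Limma 3.58.1 (R 4.3.3) with a mean-variance trend was run on log2(value + 1) for the 14796 genes that reached a value of 1 in 3 or more libraries, with Benjamini-Hochberg adjustment over all of them. Fold changes are cKO-labelled over control-labelled and understate changes of low genes. The members and lists were chosen with earlier results of these data known. Genes were named by the highest mean, the largest and smallest fold change and the smallest p in each direction per complex, together with isoform pairs and Ppargc1a, and exceptions are marked. For each list outside the rule the gene with the smallest p in each direction was taken. Gene positions, lengths and shared stretches are from GENCODE M21 on GRCm38, the same assembly as mm10, and promoters from RefSeq. Poisson intervals and the 3-read floor (0.126 to 0.303 scaled CPM) cover counting error only. The procedure was tested on simulated data. Alternatives were pseudocounts of 0.1 and 5, no filter or one at 5, other scalings, edgeR 4.0.16 and DESeq2 1.42.0 on the whole reads, a fit with replicate number as a block, and the omission of each library in turn. The omission of both libraries numbered 2 was added after seeing the data.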

Additional observations from a re-analysis of the deposited data

How the results depend on the processing

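The count of called members was 0 under all 17 alternatives. Over all genes tested it was also 0, except for 1 of 14796 with DESeq2, so the count is no trait of the members. The number of members above 0 was 48, and 31 to 72 when 1 library was left out, with a median log2 fold change of 0.02, and -0.22 to 0.26. Members without overlap between groups numbered 0, against 2 with quantile normalization (2.25%, beside 4.60% of all genes). They numbered 5 to 13 with 1 library left out. That was 12.5%, 14.8% and 14.9% without cKO-labelled replicates 1, 2 and 3, beside 22.4%, 9.65% and 14.4% of all genes, and 9.09%, 6.82% and 5.62% without control-labelled replicates 1, 2 and 3, beside 13.3%, 11.7% and 9.20%. Without both libraries numbered 2 it was 23 of 88 (26.1%, beside 20.01% of all genes), where fewer libraries are compared. In that last setting 71 of 88 (80.7%) were above 0, with a median of 0.18, beside 52.1% and 0.02 for all genes. Equal column totals gave 42 of 89 above 0 (47.2%, beside 45.6% of all genes) and median-of-ratios factors 45 (50.6%, beside 46.4%). With 1 library left out, the complex medians ran from -0.22 to 0.27 for complex I subunits, -0.67 to -0.13 for assembly factors (-0.04 without both libraries numbered 2), 0.06 to 0.25 for complex II, -0.17 to 0.39 for complex III with cytochrome c, -0.19 to 0.20 for complex IV and -0.32 to 0.23 for ATP synthase. For the 41 named genes tested, 28 of 683 fold changes under alternatives changed sign and 0 were called. The cause was not tested. The 683 include fits with the replicate block and with other filters, which leave a gene's fold change as it is and could not change a sign. The replicate numbers did not pair the libraries by the rule used, since deviations of same-numbered libraries correlated at 0.49, 0.30 and 0.03, although each library correlated best with its own number, a hint from the data. A fit with the numbers as a replicate block cannot change a fold change in this balanced design. Its 48 members above 0 and median of 0.02 were thus fixed in advance. Only the called count could differ, and it was 0, beside 0 of all genes tested. Members with at least 100 reads numbered 66 in cKO-labelled replicate 2 and 82 in control-labelled replicate 1, 2 libraries of like depth (10094145 and 10638387 reads), and 78 to 85 in the other 4.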
